A study of Homo sapiens with 12 samples.

Results

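The LRRC8 genes encode the subunits of the volume-regulated anion channel. The family was taken as the 5 rows of the deposited gene table named LRRC8A, LRRC8B, LRRC8C, LRRC8D and LRRC8E, out of 59542 rows, and all 5 passed the filter on low counts that left 17947 genes for testing. RNA had been sequenced from SKOV-3, an established human ovarian adenocarcinoma line, in 4 groups of 3 libraries. Parental cells carried no drug resistance and were labelled wild type, and parental double knockout cells carried a knockout of both KDM5A and KDM5B, 2 histone H3 lysine 4 demethylase genes. Resistant cells were SKOV-3 CDDP, a cisplatin-resistant derivative with wild-type genotype, and resistant double knockout cells carried both knockouts in that derivative. All 4 groups were grown in the same medium with serum and antibiotics, and the labels give no cisplatin treatment, no dose and no statement of whether a line was 1 clone. Nor is it stated that replicate libraries stem from independent cultures, and the p-values below therefore measure only the spread between these libraries.

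The volume-regulated anion channel opens when a cell swells and lets chloride and small organic osmolytes such as taurine leave, so that water follows and the volume returns. LRRC8A is needed for every functional channel and assembles with at least one of LRRC8B to LRRC8E, and the partner sets which molecules pass. Channels that hold LRRC8D are known to pass larger and uncharged substrates, and channels of LRRC8A with LRRC8D are a known route by which cisplatin enters cells. Channels of LRRC8A with LRRC8C or LRRC8E favour small anions, and LRRC8B has been linked to calcium leak from the endoplasmic reticulum.

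Totals ran from 15659352 to 19706754 counts per library, and the members had 642 to 2855 counts (LRRC8A), 66 to 414 (LRRC8B), 144 to 754 (LRRC8C), 231 to 1344 (LRRC8D) and 12 to 46 (LRRC8E). The labels were checked on the targeted genes. KDM5A was at 37.3 ± 5.59 (SD, n = 3) CPM (counts scaled by TMM to a common library size, per 1e+06) in parental and 19.7 ± 3.60 in parental double knockout cells, and at 37.4 ± 3.49 in resistant and 14.8 ± 2.82 in resistant double knockout cells. KDM5B was at 57.9 ± 19.3 and 53.8 ± 26.9 CPM in the parental pair and at 76.6 ± 36.1 and 56.7 ± 28.2 CPM in the resistant pair, so the libraries with and without knockout did not overlap for KDM5A and overlapped for KDM5B, and neither gene passed the edgeR test in either background (adjusted p 0.0524 to 1). Of 12 ovarian carcinoma and epithelial markers, 10 reached 1 CPM in parental, 11 in parental double knockout, 7 in resistant and 10 in resistant double knockout cells, with summed levels of 626 to 1182, 496 to 1410, 1752 to 2598 and 1411 to 1947 CPM. In edgeR 3 of them were higher and 6 lower in resistant than in parental cells, where 28.0% of all genes passed. Among the double knockouts 3 were higher and 5 lower, against 23.9% of all genes. Their median log2 fold changes were -1.49 and -1.37, so the sums rose while the median marker fell. Of 9 fibroblast markers, 1, 3, 5 and 6 reached 1 CPM, and their sum was 2.0 to 8.8, 2.6 to 28.7, 350 to 960 and 2527 to 4470 CPM. Of the 8 tested in edgeR, 5 were higher and 1 lower in resistant than in parental cells, with and without knockout. The epithelial and fibroblast sums differed between resistant and parental cells, and their part in the results on LRRC8 genes was not tested. None of 7 endothelial markers and 1 of 8 leukocyte markers reached 1 CPM in any group.

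LRRC8B, LRRC8C and LRRC8D lie one after the other on the plus strand of chromosome 1, while LRRC8A and LRRC8E lie alone. In GRCh38 with GENCODE release 29, LRRC8B (ENSG00000197147) spans chr1:89524836-89597864, LRRC8C (ENSG00000171488) chr1:89633072-89769903 and LRRC8D (ENSG00000171492) chr1:89821014-89936611. LRRC8A (ENSG00000136802) spans chr9:128882112-128918039 and LRRC8E (ENSG00000171017) chr19:7888505-7902021, both on the plus strand. Since LRRC8B rose and LRRC8D fell in resistant cells although they share this stretch of chromosome 1, the sequence before each start is shown with that of LRRC8A, the subunit they all assemble with. Each run holds the 200 bases from 250 to 51 before the RefSeq start (GRCh38.p14), written 5′ to 3′. Capitals mark GC boxes (GGGCGG, or CCGCCC on the other strand) and CCAAT boxes (CCAAT, or ATTGG on the other strand). RefSeq gives a second start inside LRRC8A and LRRC8D, which is not shown.
LRRC8A (chr9:128881883-128882082, + strand): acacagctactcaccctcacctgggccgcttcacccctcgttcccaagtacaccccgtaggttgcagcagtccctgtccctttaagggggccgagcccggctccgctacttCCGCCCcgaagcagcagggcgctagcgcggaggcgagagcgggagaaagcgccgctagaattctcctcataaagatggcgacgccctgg
LRRC8B (chr1:89524579-89524778, + strand): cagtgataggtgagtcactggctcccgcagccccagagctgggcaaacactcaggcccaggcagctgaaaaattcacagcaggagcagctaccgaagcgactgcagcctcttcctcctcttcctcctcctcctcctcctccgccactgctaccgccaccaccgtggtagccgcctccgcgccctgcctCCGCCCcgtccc
LRRC8C (chr1:89632870-89633069, + strand): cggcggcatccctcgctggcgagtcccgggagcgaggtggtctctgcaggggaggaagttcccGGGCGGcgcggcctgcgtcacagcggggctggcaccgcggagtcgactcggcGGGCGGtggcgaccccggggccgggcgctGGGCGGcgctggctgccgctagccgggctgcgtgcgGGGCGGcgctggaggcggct
LRRC8D (chr1:89820782-89820981, + strand): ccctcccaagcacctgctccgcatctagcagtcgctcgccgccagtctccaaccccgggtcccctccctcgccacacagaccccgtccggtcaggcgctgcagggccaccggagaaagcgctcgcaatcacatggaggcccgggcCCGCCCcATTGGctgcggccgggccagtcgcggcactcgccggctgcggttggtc
The LRRC8C run held 4 GC boxes, all on the plus strand, and those of LRRC8A, LRRC8B and LRRC8D held 1 each, on the minus strand. Among 35116 RefSeq promoters cut in the same way, 35.0% held a GC box. A CCAAT box was found before LRRC8D only among these 4, and 27.4% of all promoters held one. Of the windows not shown, those of LRRC8E and of the second LRRC8A start held no GC box and no CCAAT box. The window of the second LRRC8D start held 2 GC boxes on the plus strand, 1 on the minus strand and no CCAAT box. The runs held 17, 11, 31 and 21 CpG dinucleotides in the order printed, against a median of 8, and 97.0% of all promoters had fewer than LRRC8C. These matches describe the letters in this window, and no binding or methylation was measured.

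Per kilobase of merged exon, the order of the transcripts was LRRC8A, LRRC8D, LRRC8C, LRRC8B and LRRC8E in all 4 groups. In parental cells LRRC8A stood at 13.7 ± 2.41 CPM per kb (SD, n = 3) and LRRC8D at 10.6 ± 3.64, and the libraries of the 2 genes overlapped. They also overlapped in parental double knockout cells, at 9.41 ± 3.17 and 8.64 ± 2.92 CPM per kb. In resistant cells the levels were 23.9 ± 8.76 for LRRC8A and 4.55 ± 2.46 for LRRC8D, and in resistant double knockout cells 18.0 ± 7.70 and 3.09 ± 0.43, with no overlap in either group. LRRC8D overlapped with LRRC8C (2.61 CPM per kb) in resistant cells, and LRRC8C and LRRC8B overlapped in every group but the parental one.

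**Figure D1:**
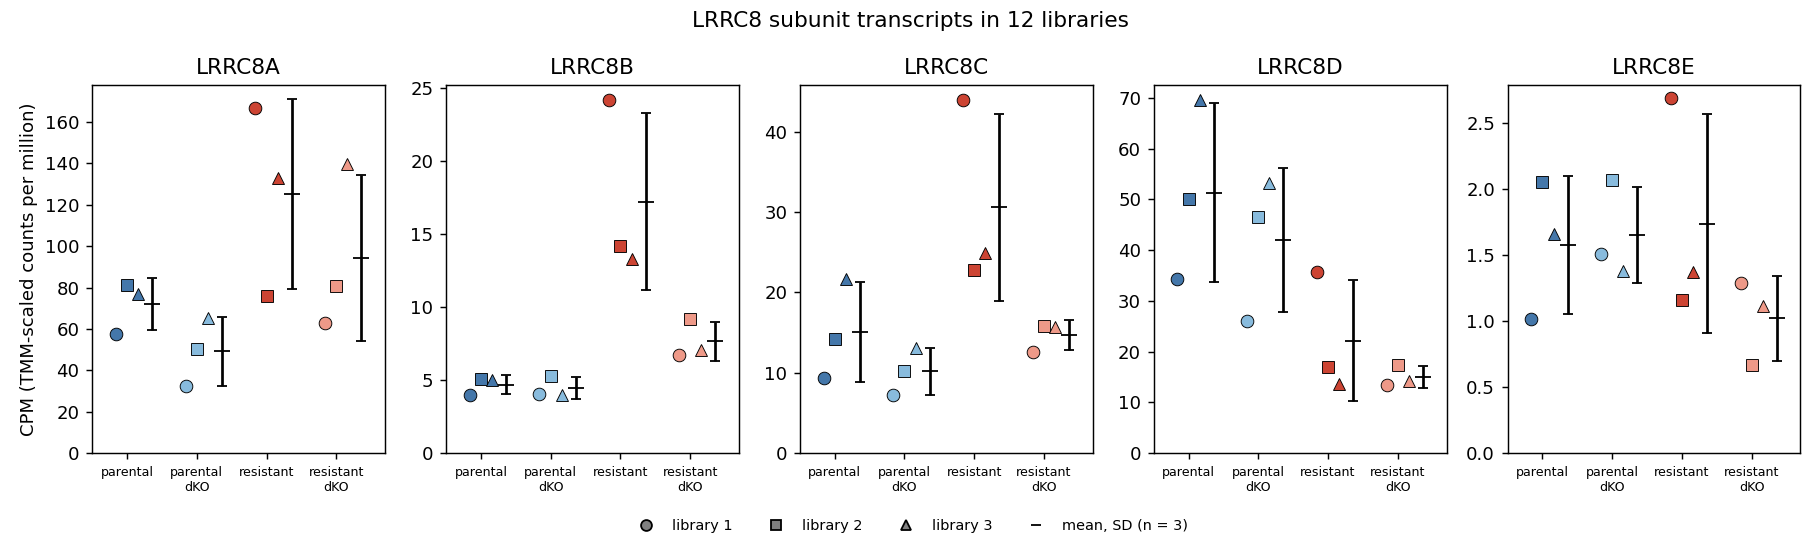
CPM (scaled by TMM) of each LRRC8 gene in the 12 libraries, 1 panel per gene with its own axis from 0; symbols give the library number and bars the mean and SD (n = 3). LRRC8B was above 13 CPM in the 3 resistant libraries and below 10 CPM in all others, and LRRC8D was below 20 CPM in 5 of the 6 libraries with resistance.

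LRRC8D, the subunit linked to cisplatin uptake, fell in resistant cells. Parental libraries 1, 2 and 3 had 34.4, 50.1 and 69.6 CPM, and resistant libraries had 35.7, 16.9 and 13.7. Resistant library 1 lay just above the lowest parental library, and the other 2 resistant libraries lay below all parental ones. The fitted log2 fold change was -1.22 ± 0.40 (SE), a level 2.32-fold lower, with a 95% interval of -2.07 to -0.36 and an adjusted p of 0.0359 in edgeR's quasi-likelihood test. The same direction was found between the double knockouts, where parental double knockout libraries had 26.0, 46.5 and 53.3 CPM and resistant double knockout libraries 13.4, 17.3 and 14.3. Those groups did not overlap, and the log2 fold change was -1.48 ± 0.40 (interval -2.34 to -0.62, edgeR adjusted p = 0.0176), or 2.79-fold lower. The call without knockout was lost when parental library 2 or 3 or resistant library 2 or 3 was left out (log2 fold change -1.24, -0.96, -1.06 and -0.93, adjusted p 0.0791 to 0.133), and it was held without resistant library 1 (-1.75, edgeR adjusted p = 0.00773). It was also lost in a fit of only the 6 libraries compared (-1.20, edgeR adjusted p = 0.0571) and with the library number as a block (-1.17, edgeR adjusted p = 0.0603). The call among knockouts was lost without resistant double knockout library 1 (-1.43, edgeR adjusted p = 0.0583).

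LRRC8B rose in resistant cells and was the member with the largest fitted fold change there. Parental libraries had 3.94, 5.06 and 5.02 CPM, and resistant libraries 24.2, 14.2 and 13.2. Every resistant library lay above every parental one, with library 1 highest. The log2 fold change was 1.88 ± 0.33 (interval 1.16 to 2.59, edgeR adjusted p = 0.00141), or 3.67-fold. Without resistant library 1 it was 1.55 (edgeR adjusted p = 0.00688). Between the double knockouts LRRC8B had 4.01, 5.29 and 3.96 CPM in parental and 6.68, 9.19 and 7.04 CPM in resistant libraries. Those groups did not overlap either, but the log2 fold change of 0.79 ± 0.32 (interval 0.09 to 1.49) had an edgeR adjusted p of 0.0944 and did not pass.

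LRRC8C had 9.38, 14.2 and 21.7 CPM in parental libraries and 44.0, 22.8 and 24.9 in resistant ones. The groups did not overlap, although parental library 3 and resistant library 2 lay close together. The log2 fold change of 1.02 ± 0.37 (interval 0.23 to 1.81), or 2.02-fold, had an edgeR adjusted p of 0.0536 and lay just outside the threshold of 0.05. Without parental library 3 it was 1.35 with an edgeR adjusted p of 0.0233, and without resistant library 1 it was 0.66 with an edgeR adjusted p of 0.228. DESeq2 and limma-voom called it (adjusted p 0.0292 and 0.0469). In the knockout pair the levels were 7.21, 10.3 and 13.0 against 12.5, 15.8 and 15.7 CPM, with overlap and a log2 fold change of 0.53 ± 0.37 (edgeR adjusted p = 0.315).

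LRRC8A, the subunit common to all channels, had 57.6, 81.4 and 76.7 CPM in parental and 167, 76.0 and 133 CPM in resistant libraries. Resistant library 2 lay within the parental range, and the other 2 lay above it. The log2 fold change was 0.80 ± 0.37 (interval -0.01 to 1.61, edgeR adjusted p = 0.127). In the double knockouts it had 32.2, 50.1 and 65.3 against 62.6, 80.7 and 139.6 CPM, with resistant double knockout library 1 inside the parental double knockout range. That log2 fold change was 0.94 ± 0.37 (interval 0.13 to 1.75, edgeR adjusted p = 0.0852).

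LRRC8E was near the limit of these libraries. It had 1.02, 2.05 and 1.66 CPM in parental and 2.68, 1.16 and 1.37 CPM in resistant libraries, and the groups overlapped. The log2 fold change was 0.14 ± 0.48 with an interval of -0.89 to 1.17 (edgeR adjusted p = 0.853). In the knockout pair it had 1.50, 2.07 and 1.38 CPM against 1.29, 0.665 and 1.11 CPM. Those groups did not overlap, yet the log2 fold change of -0.68 ± 0.48 had an edgeR adjusted p of 0.329.

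Of the 5 members, 1 rose and 1 fell in edgeR between resistant and parental cells, and 28.0% of all genes tested passed in that comparison (15.2% higher and 12.8% lower). DESeq2, limma-voom and scaling by library size alone each called 3 members there, LRRC8C being the third. Among the double knockouts 0 rose and 1 fell, against 23.9% of all genes (13.6% higher and 10.2% lower). In that comparison 3 of 5 had an unadjusted p under 0.05 in edgeR, DESeq2 and limma-voom each called 1, and scaling by library size alone called 3. With 5 members, these counts lie near the background. The share of all genes whose groups did not overlap was not computed. The median log2 fold change of the members was 0.80 against 0.02 for all genes without knockout, and 0.53 against 0.00 with it. Resistant library 1 was the highest of its group for all 5 members, and of all 12 libraries for LRRC8A, LRRC8B, LRRC8C and LRRC8E. It also had the lowest share of counts in ribosomal protein genes, 2.84% against 4.67% to 7.48% in the other 11 libraries. The part of that difference in the levels of the members was not tested.

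**Figure D2:**
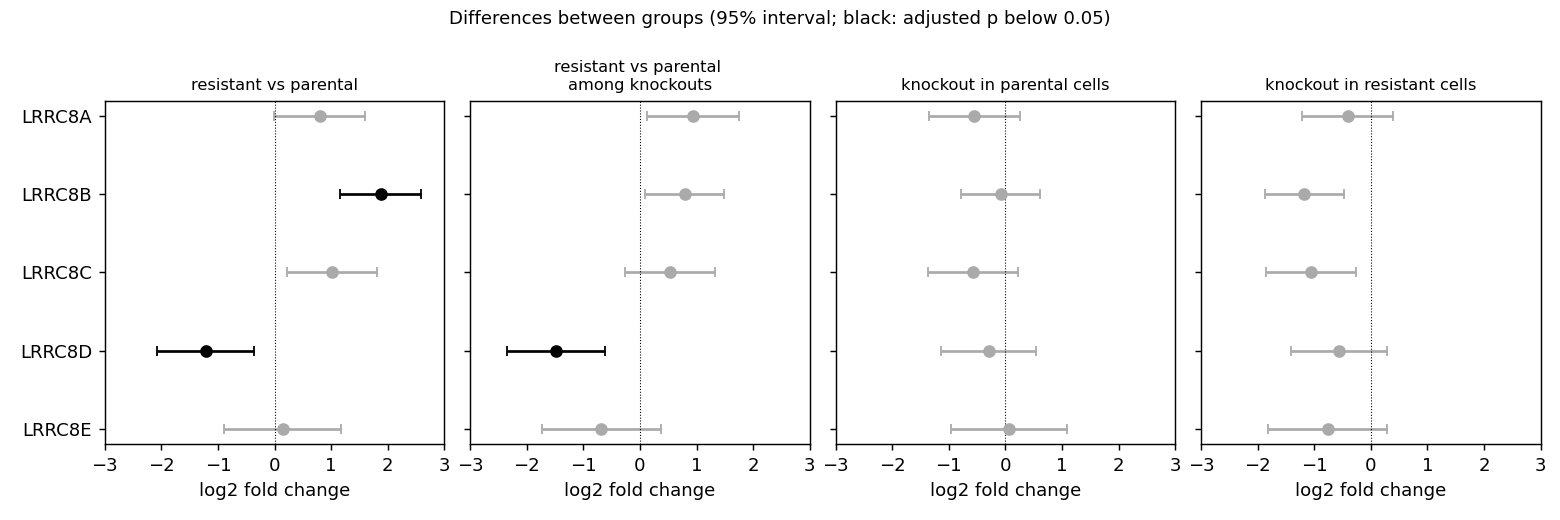
Fitted log2 fold change of each LRRC8 gene in 4 comparisons, with 95% intervals; black marks an adjusted p below 0.05 and grey the rest. LRRC8B (1.88) and LRRC8D (-1.22) passed between resistant and parental cells, LRRC8D (-1.48) passed among the double knockouts, and no member passed in this edgeR fit for the knockout in either background.

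Because each channel is built from LRRC8A and its partners, the make-up of the family was followed within each library, where a factor common to all genes of a library cancels. Shares are of the family's summed CPM per kb of merged exon and describe transcripts, not channels. LRRC8D made up 36.1%, 36.6% and 45.0% in parental libraries and 15.8%, 15.8% and 8.73% in resistant ones. In the double knockouts its share was 41.4%, 45.3% and 43.2% against 16.3%, 16.5% and 9.17%. The 6 libraries with resistance all lay below the 6 without, and library 3 had the lowest share in both resistant groups. LRRC8A had the largest mean share in every group. Its share was 52.5% ± 5.59 (SD, n = 3) in parental and 71.1% ± 6.68 in resistant cells. In parental and resistant double knockout cells it was 47.3% ± 1.95 and 75.1% ± 7.00. LRRC8B went from a mean of 2.18% to 6.40% without knockout and from 2.90% to 4.22% with it, and LRRC8C from 4.73% to 7.84% and from 4.42% to 5.58%. LRRC8E made up 1.09% to 2.06% on average. The family's sum was 26.5 ± 6.28, 19.8 ± 6.32, 33.6 ± 12.3 and 23.5 ± 7.77 CPM per kb in parental, parental double knockout, resistant and resistant double knockout cells, with overlapping libraries. No p is given for shares or ratios, because the family was chosen with results of these data known.

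**Figure D3:**
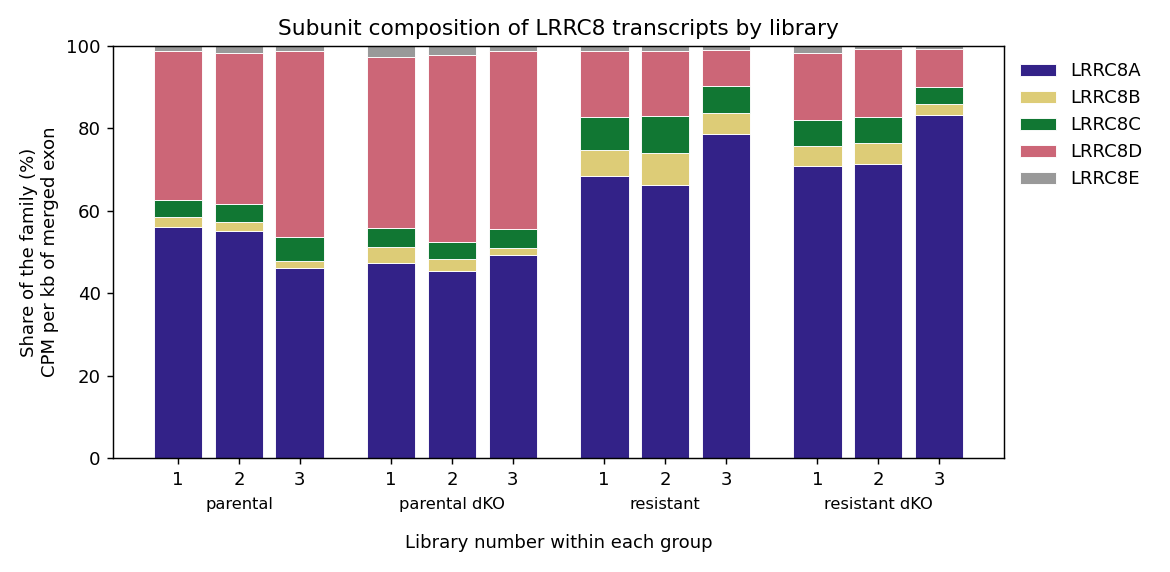
Share of each LRRC8 gene in the family's summed CPM per kb of merged exon, 1 bar per library. The LRRC8D segment spans 36.1% to 45.3% of the bar in the 6 libraries without resistance and 8.73% to 16.5% in the 6 with it.

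The ratio of LRRC8D to LRRC8A was 0.643, 0.663 and 0.978 in parental libraries and 0.231, 0.239 and 0.111 in resistant ones. In parental double knockout libraries it was 0.871, 0.999 and 0.879, and in resistant double knockout libraries 0.230, 0.232 and 0.110. The group mean was 3.93-fold lower in resistant than in parental cells and 4.81-fold lower among the double knockouts. Resistant cells had a mean of 0.194 ± 0.0719 and resistant double knockout cells 0.191 ± 0.0697 (SD, n = 3). In both groups libraries 1 and 2 lay together with library 3 apart. The ratio of LRRC8B to LRRC8D showed the opposite order, with 0.0678, 0.0597 and 0.0426 in parental and 0.400, 0.497 and 0.573 in resistant libraries. It was 0.0911, 0.0673 and 0.0440 in parental double knockout and 0.295, 0.313 and 0.292 in resistant double knockout libraries, so that the resistant double knockouts lay between the parental groups and the resistant cells without overlap. LRRC8C to LRRC8D had means of 0.120, 0.103, 0.608 and 0.407 in parental, parental double knockout, resistant and resistant double knockout cells. LRRC8B to LRRC8A had means of 0.0416, 0.0617, 0.0916 and 0.0575 in the same order. In bulk RNA, fewer cells of a kind and less RNA per cell cannot be told apart.

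**Figure D4:**
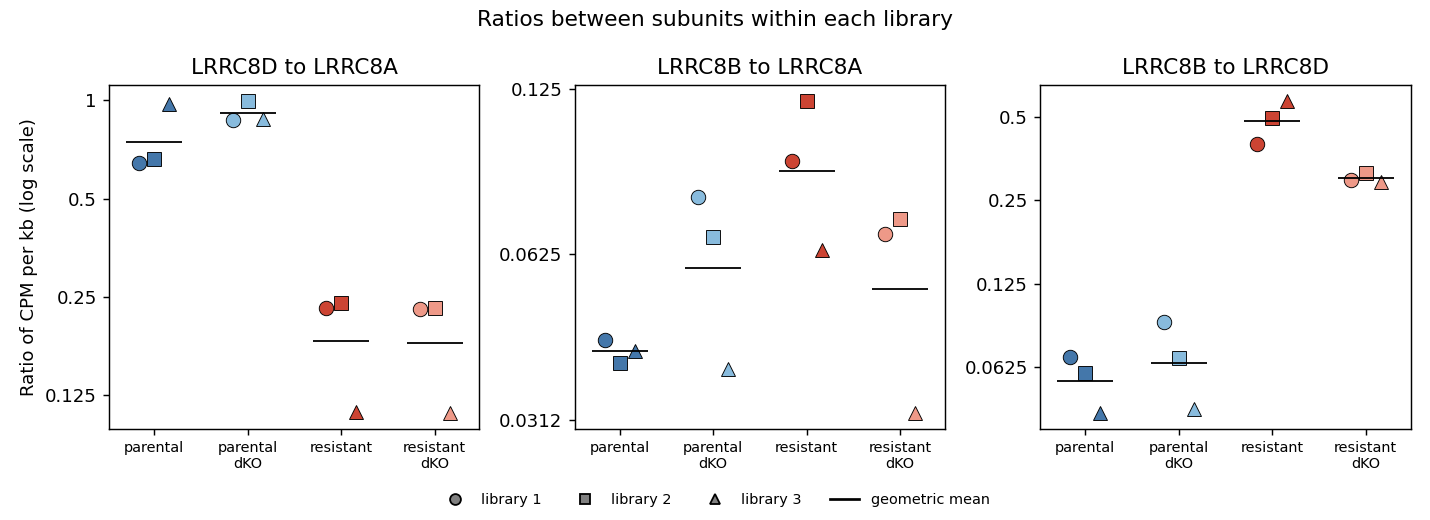
Ratios between LRRC8 genes (CPM per kb of merged exon, log axis) in each library, with the geometric mean of each group as a line. LRRC8D to LRRC8A was 0.643 to 0.999 in the 6 libraries without resistance and 0.110 to 0.239 in the 6 with it.

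The libraries labelled double knockout were then compared with the others of the same background. In parental cells 0 of 5 members passed, and edgeR called 0% of all genes (539 at an unadjusted p under 0.05, 0 of them members); DESeq2 called 11 genes and limma-voom 1. Same-numbered parental and parental double knockout libraries deviated together, and with the library number as a block within each background 154 genes passed, again with 0 members. The log2 fold changes of LRRC8A, LRRC8B, LRRC8C, LRRC8D and LRRC8E were -0.55 ± 0.37, -0.08 ± 0.32, -0.57 ± 0.37, -0.29 ± 0.39 and 0.07 ± 0.48 (SE), each with an edgeR adjusted p of 1. LRRC8A, LRRC8C and LRRC8D were lower in the double knockout library than in the parental library of the same number in 3 of 3 pairs. The share of all genes lower in 3 of 3 pairs was not computed. With the block these 3 genes had log2 fold changes of -0.59, -0.53 and -0.30 (edgeR adjusted p 0.380, 0.410 and 0.673).

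In resistant cells 0 of 5 members passed in the edgeR fit without a block (2 at an unadjusted p under 0.05). In that fit 0.212% of all genes passed, all of them higher. With the block within each background LRRC8B and LRRC8C passed, but same-numbered resistant libraries did not all deviate together, as detailed in the closing section. DESeq2 called 1 member and limma-voom 0. LRRC8B had 24.2, 14.2 and 13.2 CPM without and 6.68, 9.19 and 7.04 CPM with the knockout. All 3 double knockout libraries lay below all 3 resistant ones, and the log2 fold change was -1.17 ± 0.32 (interval -1.87 to -0.47, edgeR adjusted p = 0.255). DESeq2 gave -1.18 with an adjusted p of 0.0262 and thus called it. LRRC8C had 44.0, 22.8 and 24.9 CPM without and 12.5, 15.8 and 15.7 CPM with the knockout, also without overlap, at a log2 fold change of -1.06 ± 0.37 (interval -1.85 to -0.27, edgeR adjusted p = 0.444). For these groups, too, the share of all genes without overlap was not computed. Without resistant library 1 the log2 fold changes were -0.85 for LRRC8B and -0.71 for LRRC8C (edgeR adjusted p 0.713 and 0.956). The summed fibroblast markers also differed between these groups, with 350 to 960 CPM without and 2527 to 4470 CPM with the knockout. Of 8 such markers tested, 0 passed in edgeR, DESeq2 or limma-voom, with 6 at an unadjusted p under 0.05 in edgeR. The part of these markers in the levels of LRRC8B and LRRC8C was not tested. LRRC8A, LRRC8D and LRRC8E had estimates of -0.41 ± 0.37, -0.56 ± 0.39 and -0.76 ± 0.48 with overlapping libraries (edgeR adjusted p 0.769 to 0.869). All 5 estimates lay below 0, with a median of -0.76, while 45.9% of all genes tested had an estimate below 0 and the median of all genes was 0.04. Without resistant library 1 the 5 estimates were -0.15, -0.85, -0.71, -0.03 and -0.31 from LRRC8A to LRRC8E.

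Whether the knockout acted differently in the 2 backgrounds was tested directly. No member passed (0 of 5 in edgeR, DESeq2 and limma-voom), and 0.0279% of all genes did in edgeR. At an unadjusted p under 0.05 in edgeR 1 member passed, LRRC8B, with a difference of -1.09 ± 0.46 on the log2 scale (edgeR adjusted p = 1.00). The differences were 0.14 ± 0.52, -0.49 ± 0.51, -0.27 ± 0.55 and -0.83 ± 0.68 for LRRC8A, LRRC8C, LRRC8D and LRRC8E.

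The start of LRRC8C lies 108236 bases and that of LRRC8D 296178 bases after the start of LRRC8B, and the 3 genes did not move as a block. Within 500 kb of a member of this cluster GENCODE places 8 other protein-coding genes, of which 3 had enough counts to be tested. GBP1, an interferon-inducible GTPase, had a log2 fold change of 5.42 between resistant and parental cells and 4.45 among the double knockouts, and it passed in both. GBP2 of the same family had 2.00 (edgeR adjusted p = 0.0706) and 2.59 (edgeR adjusted p = 0.0297). ZNF326, on the far side beyond LRRC8D, had -0.67 and -0.68 and passed in both (edgeR adjusted p 0.0355 and 0.0368). GBP1 and LRRC8B were thus higher in resistant cells, and LRRC8D and ZNF326, further along the chromosome, were lower. These genes passed without knockout, LRRC8B did not pass among the double knockouts, and an order along the chromosome was not tested. Around LRRC8A 21 of 23 neighbours were tested, with 4 higher and 2 lower in resistant cells and 2 and 0 among the double knockouts. Around LRRC8E 28 of 39 were tested, with 4 and 2 and then 2 and 2. Of all genes tested, 28.0% passed between resistant and parental cells and 23.9% among the double knockouts.

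**Figure D5:**
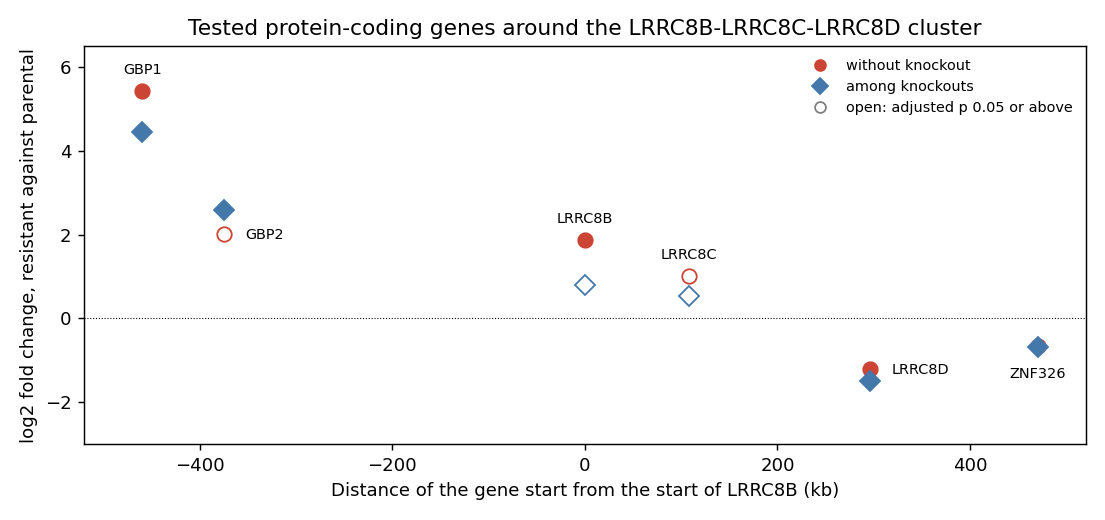
Fitted log2 fold change between resistant and parental cells of the protein-coding genes tested around LRRC8B, LRRC8C and LRRC8D, against the distance of the gene start from that of LRRC8B in kb; circles are without and diamonds with the knockout, and filled symbols passed an adjusted p of 0.05. GBP1 lay highest (5.42) and LRRC8D lowest (-1.22 and -1.48).

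Genes that overlap the members could share reads with them. KYAT1, which encodes a kynurenine aminotransferase, lies on the opposite strand over part of LRRC8A and had 4926 counts in all 12 libraries together. Its log2 fold change was 1.50 between resistant and parental cells and 1.37 among the double knockouts (edgeR adjusted p 0.0180 and 0.0296). LRRC8C-DT overlaps LRRC8B on the opposite strand with 263 counts in all, and AC010336.1 overlaps LRRC8E with 38. A gene model on the same strand over LRRC8C and LRRC8D, AC093423.3, was not analysed here. The library kit keeps the strand, but the strand setting of the counting is not given in the sources used here, so these overlaps make the levels of LRRC8A, LRRC8B and LRRC8E uncertain to that extent.

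Other genes that set cell volume were read from 5 lists. Of 22 genes for cation-chloride cotransport, potassium and water flow and their kinases, 20 were tested, and 5 rose and 2 fell in resistant cells (median log2 fold change 0.29 against 0.02 for all genes). For this and the following lists, the share of all genes called was 28.0% without knockout and 23.9% among the double knockouts. KCNMA1, the large-conductance calcium-activated potassium channel, rose from 4.10 ± 2.32 to 90.6 ± 21.4 CPM (SD, n = 3; log2 fold change 4.47 ± 0.40 SE). SLC12A7, the potassium-chloride cotransporter KCC4, rose from 6.01 ± 3.21 to 87.9 ± 39.6 CPM (3.87 ± 0.63), and the water channel AQP11 and the kinase WNK2 rose by 2.12 ± 0.40 and 1.72 ± 0.36 on the log2 scale. With knockout in both, 4 rose and 3 fell (median -0.04 against 0.00). KCNMA1 (4.11 ± 0.40), SLC12A7 (2.56 ± 0.59) and the water and glycerol channel AQP3 (2.11 ± 0.47) rose there, and KCNN4, an intermediate-conductance potassium channel, fell from 163 ± 59.0 to 43.7 ± 6.82 CPM (-1.90 ± 0.36).

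Of 28 other anion channel genes 22 were tested, and 6 rose and 2 fell without knockout, with 3 and 2 among the double knockouts (medians 0.54 and 0.19). The chloride-proton exchanger CLCN4 rose from 6.83 ± 2.78 to 35.4 ± 19.2 CPM (2.37 ± 0.40), and BEST3, a bestrophin, from 0.120 ± 0.0641 to 2.64 ± 0.727 CPM (4.41 ± 0.80). TTYH3, a tweety-family protein, rose from 57.1 ± 33.3 to 255 ± 201 CPM (2.16 ± 0.56). CLIC4, an intracellular chloride channel family member, fell from 624 ± 233 to 210 ± 19.9 CPM (-1.57 ± 0.38). With knockout in both, CLCN4 (2.03 ± 0.40), BEST3 (2.69 ± 0.71) and CLIC1 (1.19 ± 0.37) rose and CLIC4 fell (-1.64 ± 0.38).

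Of 11 genes of osmolyte handling and signals tied to the channel all 11 were tested, with 4 higher and 3 lower without knockout and 2 and 3 among the double knockouts (medians 0.55 and 0.44). The kinase SGK1 rose from 4.28 ± 4.30 to 205 ± 77.6 CPM (5.57 ± 0.73) and SMPD1, acid sphingomyelinase, from 9.64 ± 3.78 to 73.4 ± 24.8 CPM (2.93 ± 0.40). The glycine transporter SLC6A9 fell from 94.3 ± 51.4 to 5.90 ± 5.41 CPM (-4.00 ± 0.67), and SLC7A11, the cystine-glutamate exchanger, from 179 ± 61.0 to 31.0 ± 15.8 CPM (-2.53 ± 0.50). In the knockout pair SGK1 (4.85 ± 0.71) and SMPD1 (2.32 ± 0.39) rose, and SLC6A9 (-4.31 ± 0.69) and AKR1B1, the sorbitol-forming aldose reductase (-2.12 ± 0.44), fell.

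Of 20 genes for other large-pore channels 10 were tested, with 4 higher and 1 lower without knockout and 3 and 0 among the double knockouts (medians 0.85 and 0.33). The pannexins PANX2 and PANX1 rose from 6.47 ± 2.44 to 51.7 ± 17.3 CPM (3.00 ± 0.43) and from 11.7 ± 0.869 to 47.3 ± 22.6 CPM (2.02 ± 0.32). The connexin GJA1 rose as well (5.37 ± 1.14). In the knockout pair PANX1 (1.77 ± 0.32), PANX2 (2.17 ± 0.42) and GJA1 (3.84 ± 1.05) rose.

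Of 10 other cisplatin transport genes 10 were tested, with 4 higher and 1 lower without knockout and 3 and 2 among the double knockouts (medians 0.33 and 0.59). The organic cation transporter SLC22A2 rose from 0.0641 ± 0.111 to 4.87 ± 2.66 CPM and the efflux transporter SLC47A1 from 0.805 ± 0.647 to 21.6 ± 7.43 CPM. ATP7A, a copper-exporting ATPase, rose from 7.87 ± 1.94 to 32.4 ± 24.3 CPM (2.04 ± 0.50), and the cation transporter SLC22A3 fell from 1.33 ± 0.861 to 0.212 ± 0.0470 CPM (-2.61 ± 0.67). Between the double knockout lines SLC22A2 (8.31 ± 0.94), SLC47A1 (5.09 ± 0.75) and ATP7A (1.71 ± 0.50) rose, and SLC31A1, the copper transporter CTR1, fell from 76.5 ± 8.11 to 34.9 ± 3.75 CPM (-1.13 ± 0.29). Over the 5 lists together 0 genes passed in edgeR for the knockout in either background, with 4 at an unadjusted p under 0.05 in parental and 20 in resistant cells. DESeq2 called 0 and 1, and limma-voom 0 and 0. The list medians for the knockout in resistant cells, against 0.04 for all genes, were -0.56, -0.59, -0.67, -0.58 and -0.54 in the order given above.

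Likeness of pattern was measured as the root mean square difference of centred log2 CPM over the 12 libraries, among 11228 protein-coding genes with a mean of at least 5 CPM. Between members, LRRC8A and LRRC8C lay closest (0.365), followed by LRRC8B and LRRC8C (0.407) and LRRC8A and LRRC8B (0.550). LRRC8D lay far from all 3, at 1.16 from LRRC8A, 1.38 from LRRC8B and 1.11 from LRRC8C, although it shares a chromosomal cluster with LRRC8B and LRRC8C. LRRC8E, with few counts, lay 0.688 from LRRC8D, 0.705 from LRRC8C, 0.746 from LRRC8A and 0.869 from LRRC8B. The genes nearest to LRRC8A were SLC27A4 (0.189), MICAL3 (0.255) and POFUT1 (0.261), where the median over all genes was 0.812. Nearest to LRRC8B were SYNGR3 (0.252), DNAJB12 (0.252) and LIFR (0.263), against a median of 0.957, and to LRRC8C TOR1AIP1 (0.155), SORT1 (0.170) and GOLIM4 (0.171), against 0.851. Nearest to LRRC8D were CYB561 (0.242), FADS1 (0.279) and CACNA2D3 (0.285), against 0.918, and to LRRC8E EP300 (0.209), VGLL4 (0.220) and EIF4G3 (0.267), against 0.662. These values describe the same 12 libraries, which share depth and scaling within a library.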

How the data were processed

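The authors deposited raw counts of reads per gene for 12 libraries, in 1 table for the whole series. Per the submitters' processing notes the tools were featureCounts 2.0.1, STAR 2.7.10a and, for the reads, Trim Galore 0.6.10, with GRCh38. Their settings, strand and multiple matches included, were not given in the sources used here. Of 59542 rows, 44 identifiers stood on 2 rows with 0 reads on the repeats. Columns were matched to samples by the column names in the labels. The 2 names that differed from the label in spelling were those of resistant libraries 2 and 3. Each differed by a letter from its label and by more than a letter from every other label left unmatched. These are the 2 resistant libraries in which LRRC8D lay below all parental ones. Replicates of a group differed by far more than sampling noise.

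From the counts, CPM with TMM scaling and log2 fold changes were computed with edgeR 4.0.16 (glmQLFit and glmQLFTest, robust, filterByExpr, 4 groups of 3 in 1 fit) in R 4.3.3. p-values were adjusted by Benjamini-Hochberg over 17947 genes, at a threshold of 0.05. DESeq2 1.42.0 and limma-voom (limma 3.58.1) were alternatives, with other scalings, filters, blocks and left-out libraries. The fit was tested on simulated data. Lengths are merged exons of GENCODE release 29. Shares and ratios were not tested. Promoter sequences are from RefSeq. Depth limits precision most for LRRC8E.

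The members, the 5 lists and the 4 marker lists were chosen with earlier results of these data known. Named genes are the members, KDM5A and KDM5B, up to 4 genes per list with the lowest adjusted p among those past the threshold with at least 1 CPM in the higher group, the 3 nearest patterns per member and coding neighbours within 500 kb. 1 gene that this rule names is not reported here. KYAT1 and the other overlapping genes were named after the overlap was looked up. Same-numbered parental and parental double knockout libraries deviated together (correlations 0.658, 0.774 and 0.779), so those numbers were taken to pair the samples in the fit with the block within each background. The main edgeR fit used no block, so its errors, intervals and p-values do not use this pairing.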

Additional observations from a re-analysis of the deposited data

How the results depend on the processing

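Over 21 alternatives per gene (22 for the knockout comparisons), no member changed direction where it was called. LRRC8B between resistant and parental cells passed in 21 of 21 (log2 fold change 1.55 to 2.07). LRRC8D passed in 14 of 21 (-1.75 to -0.93) and, among the double knockouts, in 20 of 21 (-1.75 to -1.28). For LRRC8D without knockout the call was also lost with the replicate block (-1.17, edgeR adjusted p = 0.0603), with only the libraries compared (-1.20, 0.0571) and without both parental libraries numbered 3 (-0.96, 0.0943); the cause was not tested. LRRC8C passed in 7 of 21. Library size alone shifted the median of all genes among the double knockouts to 0.15 and called LRRC8A (1.09) and LRRC8B (0.95) there, both values including that shift, with 2928 genes higher and 1368 lower against 2445 and 1836. The count of members called without knockout (2 in the fit reported) was 3 with library size alone, with no filter, with DESeq2 and with limma-voom, 1 with only the libraries compared, and 1 to 2 when leaving out 1 library. Among the double knockouts it was 3 with library size alone, 2 with no filter and 0 to 1 when leaving out 1 library. For the knockout in resistant cells it was 1 with DESeq2 and 2 with the replicate block within backgrounds (LRRC8B and LRRC8C, edgeR adjusted p 0.0217 and 0.0287); same-numbered resistant libraries did not all deviate together (correlations 0.569, -0.186 and 0.639), so there the number is only a label. This block was not run between backgrounds, where it removes the spread needed for the test.

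Counts over all genes moved more. Leaving out 1 library gave 3081 to 5411 genes without knockout, 2714 to 4696 among the double knockouts, 4 to 50 for the knockout in resistant cells and 3 to 8 for the difference between backgrounds. For the knockout in parental cells (0 in the fit reported) there were 83 with no filter, 11 with DESeq2, 1 with limma-voom, 1 with the replicate block and 154 with the block within backgrounds. In resistant cells (38) there were 451, 249 and 939 with no filter, DESeq2 and the block within backgrounds, and 66 without both parental libraries numbered 3. For the difference (5) there were 11 with library size alone, 161 with no filter, 67 with DESeq2, 18 with the replicate block, 274 with the block within backgrounds and 10 without both parental libraries numbered 3. With the longest transcript as length, LRRC8A made up 44.9% in parental double knockout cells. With no division by length, LRRC8A made up 63.5% in resistant and LRRC8D 38.7% in parental double knockout cells. Depth limits LRRC8E, with 12 to 46 counts per library, so that differences smaller than its intervals were not detectable.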
